A study of Danio rerio with 35 samples.

Results

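The genes described here are the components of the TGF-beta and BMP signalling pathways of the zebrafish: ligands, receptors, SMAD proteins, inhibitory SMADs and co-repressors, secreted antagonists, proteins that store or release latent TGF-beta, and the id genes. They were listed by their known place in these pathways, with no measured value in the rule. The list was nevertheless made with earlier results of these data known. The list held 56 gene symbols, of which 53 could be matched to a gene identifier among the 26282 identifiers of the series. For 6 of the 53, both copies of a duplicated gene were on the list and the a and b copies could not be told apart, so they are written as copy 1 and copy 2 (of bmpr1a, smad3 and smad6). For acvr2ba and bambia only 1 of 2 copies was listed and the right one could not be told, so both copies were measured but not counted, and thbs1a was matched to no identifier.

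TGF-beta, activin and BMP ligands are secreted dimers that bind pairs of type I and type II serine/threonine kinase receptors. Activated receptors phosphorylate SMAD proteins, smad2 and smad3 for TGF-beta and activin and smad1, smad5 and smad9 for BMP, which enter the nucleus together with the common partner smad4. Noggin, chordin, gremlin and follistatin bind ligands outside the cell, smad6, smad7 and the ski proteins dampen the signal inside it, and the id genes are direct targets of BMP SMADs. In the adult zebrafish telencephalon, BMP and TGF-beta signals are known to act on quiescent neural stem cells. In the vertebrate brain, BMP signals restrain oligodendrocyte formation and TGF-beta signals restrain microglial activation.

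RNA was sequenced from the zebrafish forebrain of animals carrying frameshift alleles of both granulin genes (grna-/-;grnb-/-) and of wildtype animals (grna+/+;grnb+/+). Whole telencephalon came from old mutants (18 months), young mutants (5 months), old wildtype (18 months) and young wildtype (5 months) siblings, with 5 libraries in each group. Red fluorescent cells were sorted at 5 months from Tg (olig2:DsRed), whose olig2 promoter marks oligodendrocyte lineage cells, with 4 mutant and 4 wildtype libraries, and from Tg (mpeg1:mCherry), whose mpeg1 promoter marks macrophages and microglia, with 4 libraries labelled mutant and 3 labelled wildtype. Each sorted library pooled several telencephali, and the sorted mutants carried the same reporter in the grna-/-;grnb-/- background. Values are the deposited gene counts divided by a size factor of each library, called normalised counts. They are not divided by gene length, so levels of different genes were not compared. A gene was called changed where the limma adjusted p was at most 0.05 and the absolute log2 fold change at least 1, both on log2 of the normalised count plus 1.

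The reads assigned to genes per library were 13.9 M to 29.4 M (M, mega) in the telencephalon, 6.38 M to 21.8 M in mutant and 37.1 M to 59.3 M in wildtype Olig2+ cells, and 25.7 M to 31.6 M in Mpeg1+ libraries labelled mutant and 6.11 M to 29.1 M in those labelled wildtype. Mutant Olig2+ library 2 and labelled wildtype Mpeg1+ library 2 stood apart from their groups. In the telencephalon, old wildtype library 1 stood apart from its group, with an SD over genes of the log2 difference of 0.72 to 0.80 to the other 4, which lay at 0.39 to 0.43 from each other. Without it 4 members were called in old against young wildtype, 2 in old mutants against old wildtype and 2 in the difference of the age effects, as with it. Old mutant libraries 1 and 2 (0.46) and 3 and 5 (0.48) formed pairs, and the other pairs of old mutants lay at 0.70 to 0.92. The frameshifts leave a transcript that can be counted, so the granulin genes check the labels only in part. The level of grnb was lower in mutants in the telencephalon and in Olig2+ cells. In Mpeg1+ cells it was 635, 588, 579 and 499 in libraries labelled mutant, against 268, 51.3 and 258 in those labelled wildtype, so by grnb this table goes against its labels. The level of grna overlapped there, at 35094, 34618, 33298 and 32552 in libraries labelled mutant, against 41274, 30190 and 63711 in those labelled wildtype. In Olig2+ cells grna also overlapped between the genotypes. Labelled mutant Mpeg1+ libraries 1 and 2, and less so 3 and 4, also lay unusually close to each other, and p-values of that table were recomputed with each of these pairs averaged. No microglial marker was at 0 throughout either Mpeg1+ group. The sorted gene olig2 was at 181 to 1280 in mutant and 763 to 1873 in wildtype Olig2+ libraries, lower in mutants (-1.55, adjusted p 0.0496), and the lineage gene sox10 was at 0 in the lowest mutant library. The same libraries held neuronal RNA, with elavl3 at a mean of 19871 in mutant and 33418 in wildtype Olig2+ libraries. In a bulk sample, fewer cells of a type and less RNA per cell cannot be told apart.

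**Figure D1:**
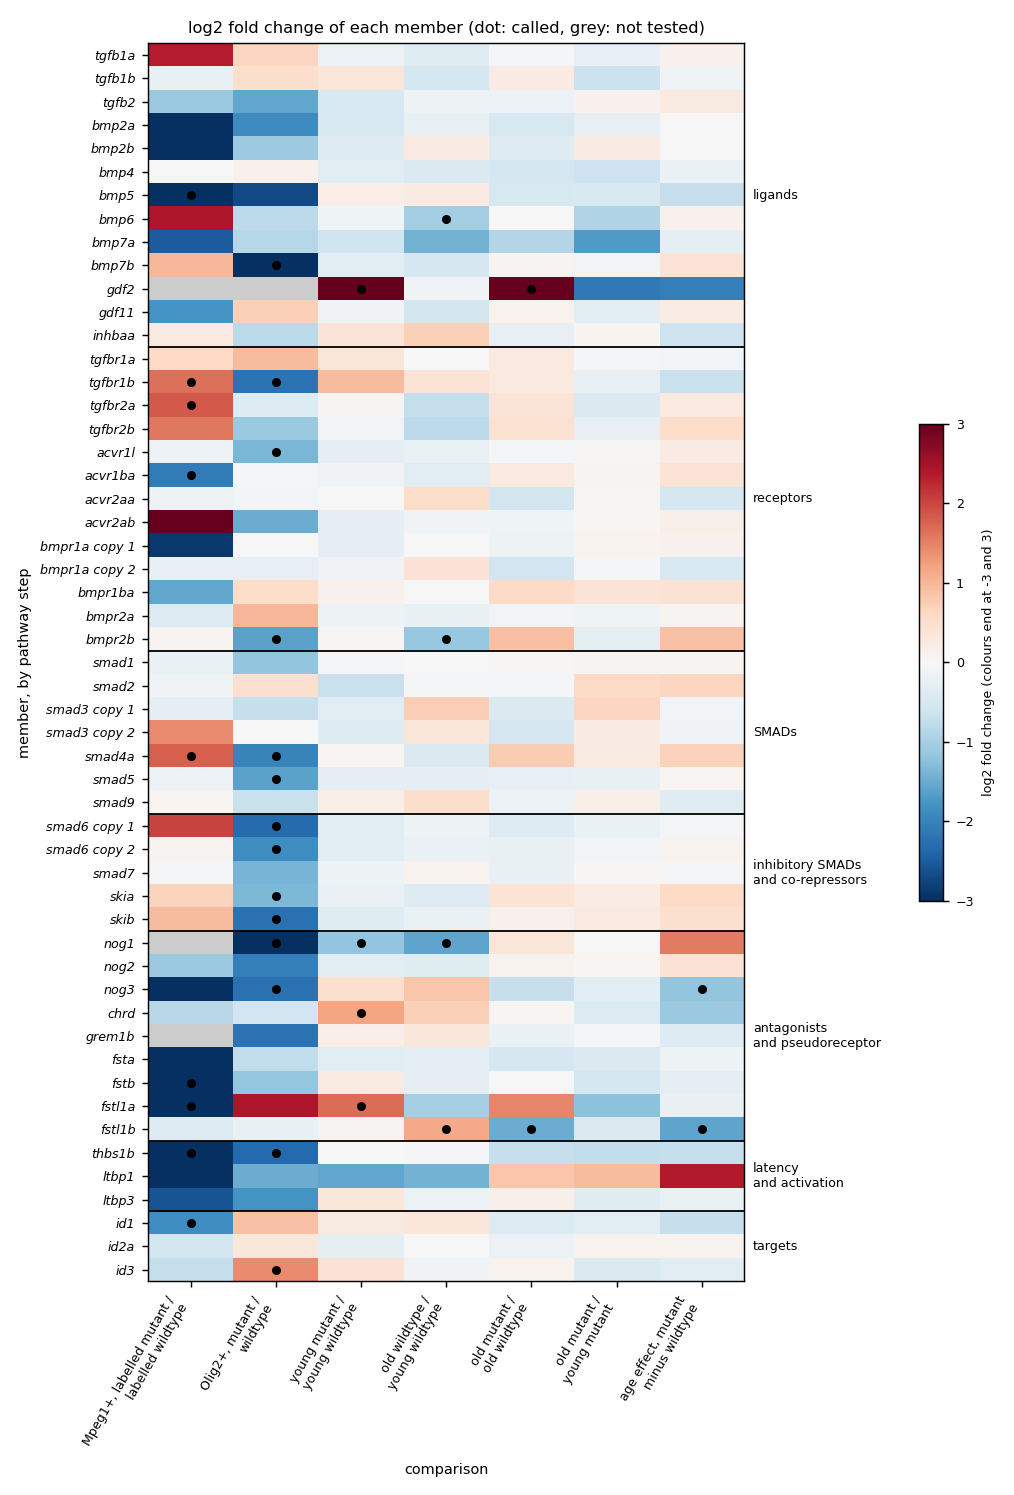
Log2 fold change of each pathway gene (rows, grouped by role) in each comparison (columns), with dots on called genes, grey for genes not tested, and the colour scale ending at -3 and 3. Olig2+ cells held the most called genes (14 of 52), and old against young mutant telencephalon held none.

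In cells sorted for the olig2 reporter, granulin mutants were compared with wildtype, and nearly all pathway genes that changed were lower in mutants. Of 52 tested, 1 rose (id3) and 13 fell, 26.9% in all, against 19.7% called among all genes (6.99% higher and 12.7% lower). The share of all called members thus lay somewhat above that of all genes, and the lower calls took most of it. The list was not blind to this comparison, since the paper reports TGF-beta and BMP terms among genes lower in mutant Olig2+ cells. The median log2 fold change of the members was -0.98, against -0.01 over all genes tested, and 38 of 52 members had a negative value. The members that fell covered receptors for both branches, a BMP SMAD and the common SMAD, and 4 of the 5 inhibitory SMADs and co-repressors.

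Among the receptors, tgfbr1b (ENSDARG00000042259), a type I receptor for TGF-beta, had 58.5, 92.3, 31.8 and 105 normalised counts in mutant Olig2+ cells, against 498, 286, 309 and 201 in wildtype. Every mutant library lay below every wildtype library, and the log2 fold change was -2.21 ± 0.48 (SE, n = 4 and 4, adjusted p 0.00832). The BMP type I receptor gene acvr1l (ENSDARG00000014986) had 1283, 2587, 1167 and 1413 in mutants, against 3736, 4217, 3791 and 4188 in wildtype (log2 fold change -1.38 ± 0.30, adjusted p 0.00815). The wildtype values of acvr1l were close together, and mutant library 2 was the highest of the mutants. The BMP type II receptor gene bmpr2b (ENSDARG00000020057) had 1145, 734, 633 and 668 in mutants, against 3797, 3249, 3506 and 719 in wildtype. Its groups overlapped because wildtype library 4 lay among the mutants (log2 fold change -1.61 ± 0.48, adjusted p 0.0310, exact permutation p 0.0857).

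The paralogue bmpr2a (ENSDARG00000011941) went the other way, with 2295, 3466, 2215 and 1921 in mutants, against 1440, 1291, 1493 and 764 in wildtype. The groups did not overlap, but the log2 fold change of 0.998 ± 0.31 (adjusted p 0.0379) fell just short of the size needed for a call. The log2 ratio of bmpr2a to bmpr2b within a library averaged 1.64 ± 0.52 in mutants and -0.97 ± 0.71 in wildtype (SD, n = 4 each). That is a difference of 2.61 with an exact permutation p of 0.0286, the smallest that 4 against 4 allows, and 0.124 after adjustment over the 13 paralogue pairs looked at. The ratio of tgfbr1a to tgfbr1b differed in the same manner, by 3.16 on the log2 scale (exact permutation p 0.0286, adjusted 0.124). The other receptor genes were not called: tgfbr1a had a log2 fold change of 0.95, tgfbr2a -0.41, tgfbr2b -1.12, acvr1ba -0.06, acvr2aa -0.08, acvr2ab -1.50, bmpr1ba 0.55, and the bmpr1a copies 0.01 and -0.24.

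Of the SMADs, smad4a (ENSDARG00000075226), a copy of the common partner, had 39.3, 164, 30.6 and 72.6 in mutant Olig2+ cells, against 306, 295, 144 and 297 in wildtype (log2 fold change -1.99 ± 0.55, adjusted p 0.0230). Mutant library 2 lay just above wildtype library 3, and the other libraries kept apart. The BMP SMAD gene smad5 (ENSDARG00000037238) had 54.5, 205, 127 and 54.5 in mutants, against 268, 396, 276 and 237 in wildtype, with no overlap (log2 fold change -1.61 ± 0.48, adjusted p 0.0324). The other BMP SMADs, smad1 at -1.19 and smad9 at -0.66, were not called. Neither were the TGF-beta SMADs, smad2 at 0.48 and the smad3 copies at -0.69 and 0.02.

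The genes that dampen the signal inside the cell gave the most uniform pattern. The inhibitory smad6 copy 1 (ENSDARG00000031763), which blocks BMP signals at the receptor, had 28.2, 40.1, 23.3 and 32.7 in mutants, against 142, 154, 168 and 159 in wildtype (log2 fold change -2.31 ± 0.45, adjusted p 0.00536). Its copy 2 (ENSDARG00000053209) had 57.5, 28.1, 34.3 and 43.6 in mutants, against 168, 210, 115 and 114 in wildtype (-1.87 ± 0.47, adjusted p 0.0166). Both copies were thus well apart between the genotypes in every library. The co-repressor gene skib (ENSDARG00000008034) had 306, 401, 213 and 323 in mutants, against 1505, 1910, 1008 and 1504 in wildtype (-2.25 ± 0.32, adjusted p 0.00135). It had the lowest adjusted p of all members in Olig2+ cells. Its paralogue skia (ENSDARG00000042151) had 658, 1621, 922 and 948 in mutants, against 3585, 2883, 2001 and 1848 in wildtype (-1.34 ± 0.34, adjusted p 0.0165). The remaining gene of the group, smad7, was at -1.40 on the log2 scale (adjusted p 0.0733), and its mutant library 2 at 746 lay within the wildtype range.

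The antagonist nog1 (ENSDARG00000058819), a noggin gene, had 2.02, 8.02, 4.90 and 10.9 in mutants, against 123, 22.3, 72.4 and 140 in wildtype (log2 fold change -3.48 ± 0.77, adjusted p 0.00937). The mutant values rest on 11 reads in all. Another noggin gene, nog3, also fell (-2.24), while nog2 at -2.06 had an adjusted p of 0.0577 and was not called. The thrombospondin gene thbs1b (ENSDARG00000010785), whose mammalian protein can release active TGF-beta from its latent form, had 32.3, 72.2, 68.6 and 105 in mutants, against 385, 355, 364 and 227 in wildtype (-2.33 ± 0.44, adjusted p 0.00476). Its groups did not overlap. The latent TGF-beta binding protein genes ltbp1 (-1.49) and ltbp3 (-1.79) were not called, nor were the follistatins fsta (-0.74) and fstb (-1.16), chordin (chrd, -0.57), grem1b (-2.23) or fstl1b (-0.22). Alone among the antagonists counted, fstl1a had a positive value, 2.43, also not called.

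Of the ligands, bmp7b fell (log2 fold change -3.19, from 8 reads in the mutants) and the other 11 tested were not called. Their values ran from -2.72 for bmp5 to 0.72 for gdf11, with tgfb1a at 0.64, tgfb1b at 0.53, tgfb2 at -1.57 and bmp4 at 0.13. The BMP ligand gdf2 lay under the filter on low values. It was at 0 in all 4 mutant libraries, which allows up to 7.41 normalised counts at 3 reads per library, and wildtype libraries had 4.76, 13.1, 12.9 and 1.21.

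Among the 3 id genes, the only targets counted as members, the direction was the opposite. The level of id3 (ENSDARG00000054823), an inhibitor of basic helix-loop-helix factors, was 2031, 4416, 2013 and 3613 in mutant Olig2+ cells, against 1181, 666, 1072 and 1533 in wildtype (log2 fold change 1.41 ± 0.35, adjusted p 0.0157). The groups did not overlap. The related id1 had 662, 2896, 620 and 882 in mutants, against 395, 567, 664 and 615 in wildtype, which overlap, and id1 (0.88) and id2a (0.34) were not called.

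**Figure D2:**
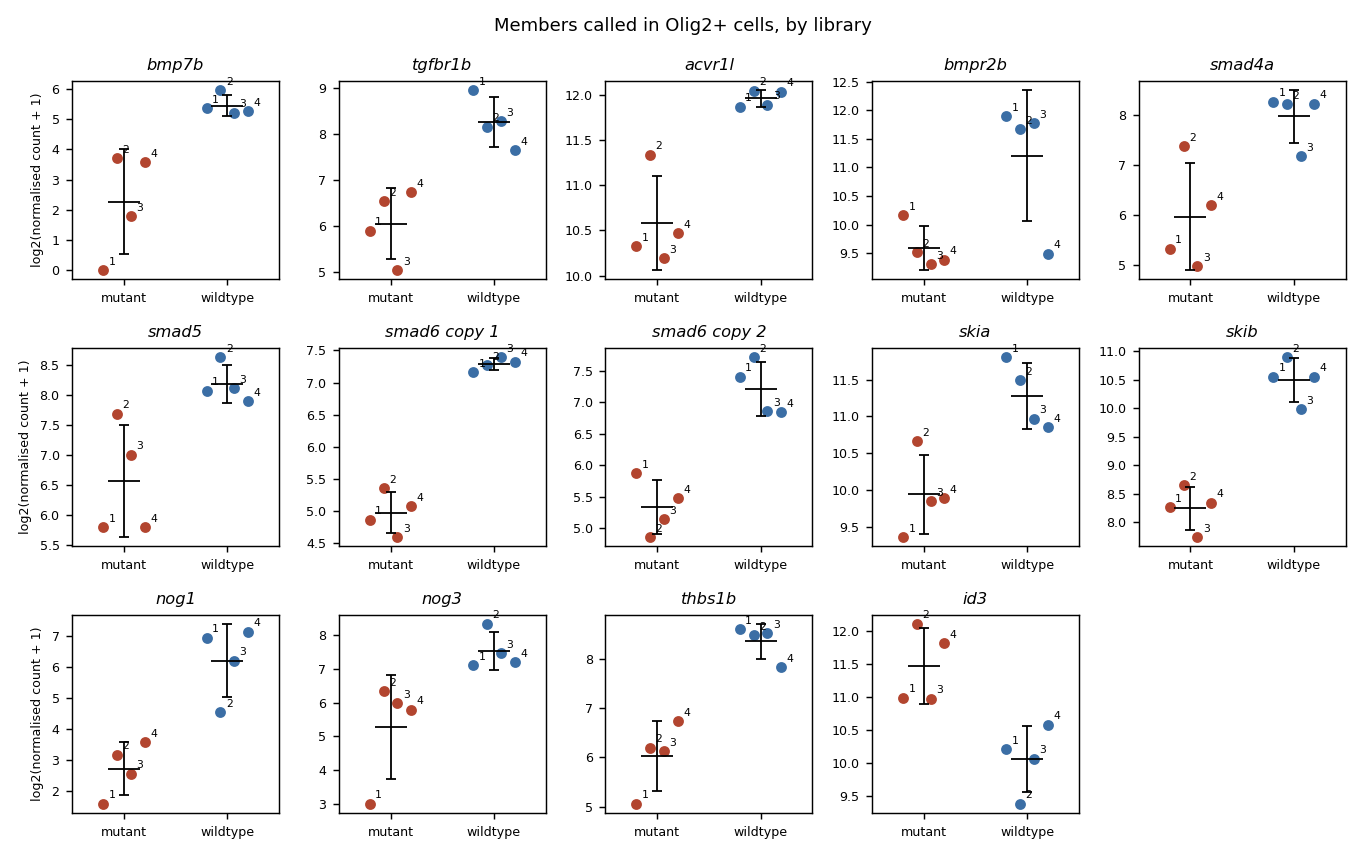
Normalised counts (log2 of the count plus 1) of the called pathway genes in each Olig2+ library, mutant left of wildtype, with the mean and SD as bars. The values of skib and both smad6 copies keep the genotypes apart in all 8 libraries, and id3 is the gene that is higher in mutants.

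Several other features differed between these groups. Depth was lower in all mutant libraries. Summed microglial markers were 36837 to 195970 in mutants and 12263 to 84431 in wildtype, with 7 of 19 called higher. Neuronal markers were 127361 to 165894 in mutants and 180316 to 231038 in wildtype, with 3 of 18 called lower, and endothelial and mural markers were 816 to 1524 in mutants and 1280 to 4829 in wildtype, with 1 higher and 4 lower of 13. Oligodendrocyte lineage markers summed to 8597 to 13484 in mutants and 10724 to 13918 in wildtype, with 1 higher and 1 lower of 15. Ependymoglial markers, at 95554 to 162589 in mutants and 79514 to 155128 in wildtype, held 2 higher and 4 lower calls of 12. Leptomeningeal fibroblast markers, at 2416 to 46634 in mutants and 3134 to 78461 in wildtype, held 3 lower of 15. Erythroid markers, at 893 to 3024 in mutants and 237 to 914 in wildtype, held 2 higher of 6, and those of neutrophils and lymphocytes, at 422 to 639 in mutants and 202 to 376 in wildtype, 2 higher of 9. No marker of these lists was at 0 throughout a group. The part of these features in the results was not tested. Of the 14 calls, 6 held in every alternative fit: tgfbr1b, acvr1l, smad6 copy 1, skib, nog1 and thbs1b. Without mutant library 2, 21 members were called. Without wildtype library 1 only 7 members were called, and without wildtype library 2 only 6. No share of all genes is set beside these counts, so they are not read as a change in the members alone. Leaving out 1 library raised the highest adjusted p to 0.0961 for bmpr2b (without wildtype library 1), 0.0741 for smad4a (wildtype 1), 0.0967 for smad5 (wildtype 2), 0.0667 for smad6 copy 2 (wildtype 1), 0.0624 for skia (wildtype 1), 0.107 for nog3 (wildtype 2), 0.0778 for bmp7b (wildtype 2) and 0.0550 for id3 (wildtype 2).

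Of 72 other genes of the pathways tested in Olig2+ cells, 1 rose and 10 fell, 15.3% in all against 19.7% of all genes, with 13.9% lower against 12.7%, so their share was close to or below that of all genes. Their median log2 fold change was -0.57. Among SMAD regulators 4 of 15 fell, with the ubiquitin ligase smurf1 (-1.27) and the co-repressors skila (-1.50) and tgif1 (-1.43) among them. Among other receptors and co-receptors 3 of 9 fell: acvr1bb (-2.36), engl (-5.19) and the BMP co-receptor rgmb (-2.57). The 10 other targets tested did not share the rise of id3: 0 rose and 2 fell, ccn2a (-1.81) and col1a1a (-2.78). Their median log2 fold change was -0.44. The activin type II receptor acvr2b copy 1 (ENSDARG00000044422), which may or may not be the listed acvr2ba, had 83.7, 48.1, 23.3 and 87.2 in mutants, against 391, 294, 332 and 187 in wildtype (-2.42 ± 0.50, adjusted p 0.00671).

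In Mpeg1+ cells, the same genotype comparison in microglia and macrophages, 9 of 50 members were called between the labels, 18.0%, against 8.50% of all genes (4.93% higher and 3.57% lower). Libraries labelled mutant were higher in 3 members, the TGF-beta receptors tgfbr1b and tgfbr2a and the SMAD smad4a, and lower in 6. All 7 antagonists tested and counted had negative values, with a median of -3.13, and 2 of them were called. Of the uncounted bambi copies, copy 1 was higher, at 1215, 1234, 871 and 864 in libraries labelled mutant, against 504, 775 and 351 in those labelled wildtype. Its copy 2 had 36.2, 46.2, 101 and 112 in libraries labelled mutant, against 116, 241 and 110 in those labelled wildtype. The median log2 fold change over all members was -0.23, against 0.05 over all genes. The noggin gene nog1 was under the filter on low values (mean 4.90), and gdf2 and grem1b were not analysed in these cells. With the alike labelled mutant libraries averaged, no member was called, 10 members had an unadjusted limma p under 0.05, and 18 of all genes were called. No share of all genes at that unadjusted p is set beside the 10. In the main fit 38.0% of members and 26.5% of all genes had an unadjusted limma p under 0.05.

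A copy of each TGF-beta receptor subunit stood higher in libraries labelled mutant. The type I receptor gene tgfbr1b had 1443, 1362, 1451 and 1137 normalised counts in libraries labelled mutant, against 573, 311 and 429 in those labelled wildtype (log2 fold change 1.66 ± 0.25, SE, n = 4 and 3, adjusted p 0.00810, and 0.210 with alike libraries averaged). The type II receptor gene tgfbr2a (ENSDARG00000059363) had 2106, 1860, 1765 and 1740, against 382, 554 and 660 in those labelled wildtype (1.84 ± 0.23, adjusted p 0.00403, and 0.165 averaged). For both genes the lowest library labelled mutant was far above the highest labelled wildtype. The other type II copy, tgfbr2b, was not called (adjusted p 0.627), with 479, 430, 767 and 725 in libraries labelled mutant, between 3.16 in labelled wildtype library 2 and 1008 and 1766 in libraries 1 and 3, and tgfbr1a was at 0.60 on the log2 scale. The common SMAD gene smad4a had 396, 394, 294 and 230, against 143, 51.3 and 103 in those labelled wildtype (1.80 ± 0.45, adjusted p 0.0440, and 0.434 averaged). For all 9 called members the exact permutation p was 0.0571, the smallest that 4 against 3 allows, so this design cannot reach 0.05 by that test.

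The activin type I receptor gene acvr1ba (ENSDARG00000018968) went the other way, with 90.1, 103, 141 and 166 in libraries labelled mutant, against 420, 637 and 543 in those labelled wildtype (-2.11 ± 0.35, adjusted p 0.0107, and 0.203 averaged). The BMP target id1 (ENSDARG00000040764) had 472, 508, 520 and 646, against 2588, 2246 and 1237 in those labelled wildtype (-1.86 ± 0.29, adjusted p 0.00879, and 0.183 averaged). Its relatives id2a and id3 also did not overlap between the labels but were not called: id2a averaged 5521 in libraries labelled mutant and 8071 in those labelled wildtype (-0.55), and id3 averaged 963 in libraries labelled mutant and 1668 in those labelled wildtype (-0.73).

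The follistatin gene fstb (ENSDARG00000057992), whose product binds activin, was close to absent from libraries labelled mutant. It had 0, 0.907, 0 and 0 there, against 1261, 47.4 and 508 in those labelled wildtype, and the ratio of the groups was 0.000374 (95% counting interval 9.48e-06 to 0.00209) from 1 read in the libraries labelled mutant. Its adjusted p was 0.00621, and 0.155 averaged. The secreted glycoprotein gene fstl1a (ENSDARG00000015559) had 3.69, 7.25, 0 and 0, against 113, 302 and 51.4 in those labelled wildtype (-5.61 ± 1.09, adjusted p 0.0190, and 0.241 averaged). The thbs1b gene had 0, 0, 1.65 and 0.832, against 215, 7.11 and 159 in those labelled wildtype (ratio 0.00489, interval 0.00101 to 0.0143, adjusted p 0.0344, and 0.334 averaged). The BMP ligand bmp5 (ENSDARG00000101701) had 2.21, 2.72, 0 and 0, against 11.9, 70.3 and 35.9 in those labelled wildtype (adjusted p 0.0383, and 0.376 averaged). Its ratio was 0.0313 (interval 0.0115 to 0.0682), from 6 reads in the libraries labelled mutant. These low genes were therefore marked by their presence in libraries labelled wildtype, and by wide differences among those libraries. Counting intervals cover counting error only.

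**Figure D3:**
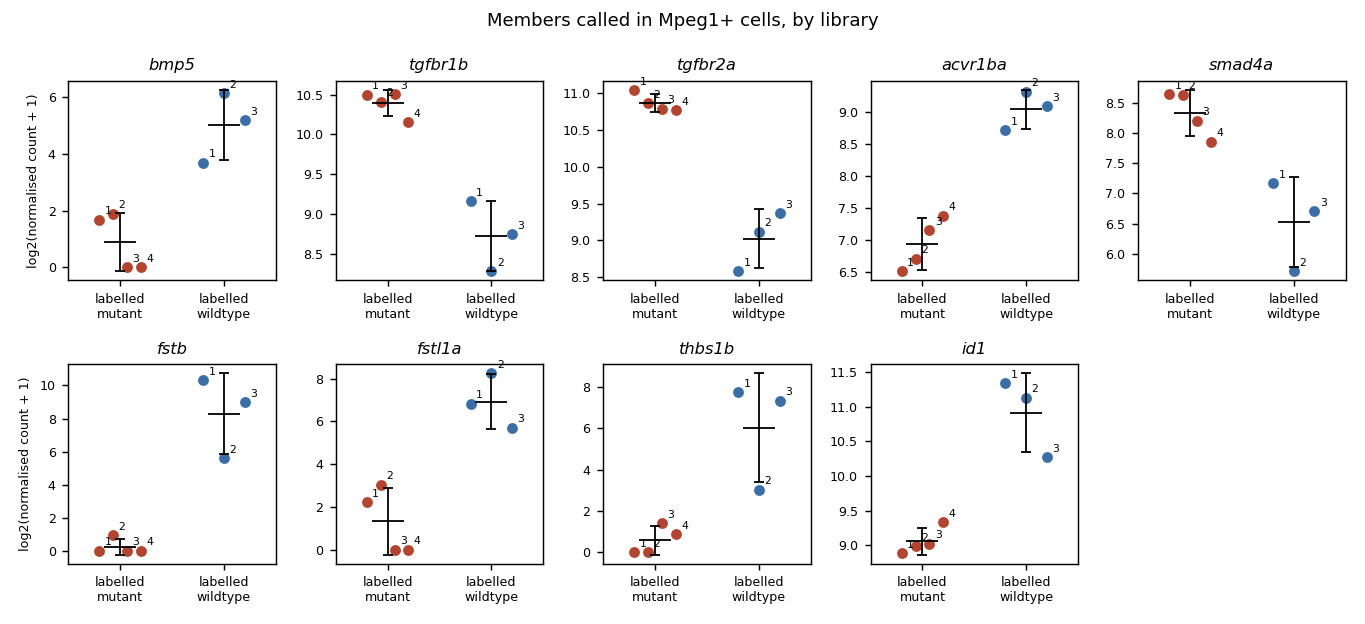
Normalised counts (log2 of the count plus 1) of the called pathway genes in each Mpeg1+ library, those labelled mutant left of those labelled wildtype, with the mean and SD as bars. The receptors tgfbr1b and tgfbr2a lie higher and id1 lower in all 4 libraries labelled mutant, while fstb and thbs1b sit near 0 there.

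Uncalled members of the same kind also showed the contrast between labelled wildtype libraries 1 and 3 and library 2. For fsta the values were 1.48, 3.63, 2.47 and 3.33 in libraries labelled mutant, against 1434, 4.74 and 812 in those labelled wildtype (adjusted p 0.0893). For ltbp1 they were 0, 0, 0.824 and 0, against 456, 0.790 and 238 in those labelled wildtype (adjusted p 0.0959). Labelled wildtype library 2 was low in both genes. Without it 18 members were called, 4 higher and 14 lower, and 4070 of all genes were. Without labelled mutant library 1, 3 or 4 only 5 members were, a count with no share of all genes beside it. The calls lost most often were thbs1b, with an adjusted p of up to 0.101 (without labelled mutant library 1), smad4a, up to 0.141 (without labelled mutant library 2), bmp5, up to 0.121, and fstl1a, up to 0.0664 (both without labelled mutant library 3). Of the uncalled SMADs and inhibitory SMADs, smad1, smad2, smad5, smad7, smad9 and smad6 copy 2 had log2 fold changes between -0.21 and 0.09. Larger values were those of smad3 copy 2 (1.42), smad6 copy 1 (2.04) and the co-repressor skib (0.96), for which labelled wildtype library 2 was the lowest library, and smad3 copy 1 was at -0.29. For smad3 copy 2 the groups did not overlap (adjusted p 0.214). The co-repressor skia was higher by 0.66 and did not overlap, with an adjusted p of 0.0540.

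Summed leptomeningeal fibroblast markers differed between the labels, at 3028 to 3661 in libraries labelled mutant and 306014 to 529662 in those labelled wildtype. In this sum labelled wildtype library 2 was thus also far above the libraries labelled mutant, unlike in fsta and ltbp1. The marker epd made up most of the sum, at 290063 to 519236 in libraries labelled wildtype. Single markers differed in their spread among those libraries. The range was wide for col1a1b (2.37 to 1328) and cyp1b1 (3.16 to 254) and narrow for slc13a4 (1579 to 2019). Of 18 markers 1 was higher and 9 were lower, and lum was at 0 in libraries labelled wildtype. Ependymoglial markers summed to 81086 to 84148 in libraries labelled mutant and 122700 to 412595 in those labelled wildtype, with 6 of 12 lower, and heat shock and immediate early genes summed to 2127760 to 2413210 in libraries labelled mutant and 147040 to 592491 in those labelled wildtype, with 6 of 13 higher. The 19 microglial markers, at 909024 to 939730 in libraries labelled mutant and 530661 to 987785 in those labelled wildtype, held no call. Oligodendrocyte lineage markers summed to 5190 to 6296 in libraries labelled mutant and 7210 to 9790 in those labelled wildtype, with 3 of 15 lower. Neuronal markers, at 13378.5 to 14566.1 in libraries labelled mutant and 5593.82 to 53436.5 in those labelled wildtype, held no call. Endothelial and mural markers summed to 12764 to 14515 in libraries labelled mutant and 10405 to 20409 in those labelled wildtype, with 1 of 13 lower. Among them kdrl had 2.50 to 84.2 in libraries labelled mutant and 3.16 to 1243 in those labelled wildtype. For slc2a1a these ranges were 57.6 to 187 and 4.74 to 2150, and for tie1 425 to 764 and 12.6 to 793. Markers of neutrophils and lymphocytes had 1 higher and 1 lower of 8, and erythroid markers no call. The part of the other cell types in the differences of fstb, fstl1a, thbs1b, bmp5 and the remaining antagonists was not tested. Of 67 other pathway genes tested, 6 were higher and 8 lower in libraries labelled mutant, 20.9% against 8.50% of all genes. They included the SMAD regulators skilb (2.53), tob1b (1.34) and pmepa1 (1.73), the ligands gdf7 (3.64), tgfb3 (-1.94) and mstnb (-3.64), the TGF-beta target ccn2a (-1.50), and the BMP targets id2b (-2.76) and hamp (2.56).

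In whole telencephalon, age in wildtype animals moved few members past both thresholds, but bmpr2b and fstl1b changed clearly. Of 53 tested, 1 rose and 3 fell with age, 7.55%, against 10.9% of all genes (5.21% higher and 5.66% lower), which is no excess over all genes. The median log2 fold change of the members was -0.15, against -0.01 over all genes. The BMP type II receptor gene bmpr2b had 1856, 1470, 1511, 1742 and 1795 normalised counts in old wildtype, against 2950, 3924, 3991, 3996 and 3662 in young wildtype. No library overlapped, and the log2 fold change was -1.14 ± 0.13 (SE, n = 5 each, adjusted p 3.46e-06). The gene fstl1b (ENSDARG00000039576) had 2402, 5575, 4126, 4421 and 3735 in old wildtype, against 1809, 1444, 1973, 1895 and 1802 in young wildtype (1.14 ± 0.16, adjusted p 3.70e-05). Old wildtype library 1 was the lowest of its group for fstl1b and still lay above every young library.

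The other 2 calls with age concerned low genes. The noggin gene nog1 had 2.29, 4.92, 1.61, 5.12 and 4.61 in old wildtype, against 15.4, 8.52, 10.9, 15.2 and 13.1 in young wildtype (-1.58 ± 0.37, adjusted p 0.00289). The ligand gene bmp6 (ENSDARG00000015686) averaged 15.6 ± 5.97 in old wildtype and 34.1 ± 14.3 in young wildtype (SD, n = 5 each, adjusted p 0.0459), and its call was lost when any of 7 libraries was left out, with an adjusted p of up to 0.121 without young wildtype library 5. Both genes were thus low, and the young wildtype libraries of bmp6 alone ran between 15.2 and 53.2.

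A further 13 members passed the adjusted p with a change under the threshold of size, which makes 17 of 53 passing it (32.1%), against 34.5% of all genes. The noggin gene nog3 (ENSDARG00000053528) had 149, 213, 226, 203 and 177 in old wildtype, against 97.0, 85.2, 123, 99.9 and 136 in young wildtype (0.84 ± 0.17, adjusted p 0.000831). The activin type II receptor gene acvr2aa (ENSDARG00000011188) had 2537, 3873, 3599, 4181 and 3907 in old wildtype, against 2144, 2472, 2546, 2585 and 2467 in young wildtype (0.55 ± 0.10, adjusted p 0.000322), overlapping in old library 1. In the other direction, tgfbr2b averaged 110 ± 32.4 in old wildtype and 186 ± 18.9 in young wildtype (-0.79 ± 0.15, adjusted p 0.000591). Among SMADs and targets, where none was called, the lowest p-values belonged to smad3 copy 2 and id1. The smad3 copy 2 gene had 782, 668, 735, 683 and 759 in old wildtype, against 696, 730, 473, 491 and 489 in young wildtype (0.36 ± 0.13, adjusted p 0.0404), and id1 had 521, 664, 670, 644 and 490, against 495, 448, 458, 450 and 454 in young wildtype (0.36 ± 0.17, adjusted p 0.112). Both pairs of groups overlapped. The balance of paralogues differed with age in 5 of 13 pairs at an exact permutation p of 0.00794, the smallest that 5 against 5 allows (adjusted over the pairs, 0.0206). The log2 ratio of bmpr2a to bmpr2b was higher by 0.93 in old wildtype, that of acvr2aa to acvr2ab higher by 0.66, and those of fstl1a to fstl1b, bmp2a to bmp2b and bmpr1a copy 1 to copy 2 lower (-2.14, -0.48 and -0.46). No pairs of other genes were examined, so this count has no share beside it. With age in wildtype, 44.5% of all genes had an unadjusted limma p under 0.05. Ratios with bmpr2b, acvr2aa or fstl1b also hold the changes of these genes given above.

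Young mutant telencephalon was compared with young wildtype to ask what granulin loss does before old age. Of 53 members 3 were called higher and 1 lower, 7.55%, against 8.79% of all genes (4.97% higher and 3.82% lower), again no excess. The ligand gdf2 (ENSDARG00000059173), known in mammals as a circulating BMP made mainly by the liver that acts on blood vessels, had 50.9, 113, 47.5, 52.2 and 58.7 in young mutants, against 0.669, 1.22, 1.09, 1.26 and 0 in young wildtype. The ratio was 76.2 (95% counting interval 29.7 to 280), with 4 reads in all young wildtype libraries. In every young mutant library the gene was clearly present, and in every young wildtype library it was close to absent.

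Antagonists made up the other calls. Chordin (chrd, ENSDARG00000006110) had 174, 69.6, 89.8, 167 and 155 in young mutants, against 33.5, 41.4, 66.3, 54.4 and 90.6 in young wildtype (log2 fold change 1.18 ± 0.27, adjusted p 0.00317). Young wildtype library 5 overlapped the 2 lowest mutants. The fstl1a gene had 48.8, 71.9, 125, 59.4 and 69.6 in young mutants, against 21.4, 14.6, 56.5, 10.1 and 25.2 in young wildtype (1.68 ± 0.53, adjusted p 0.0239). Its call was lost without young wildtype library 2 or 4 or young mutant library 3, with an adjusted p of up to 0.0668 (without young wildtype library 4). The low gene nog1 fell by 1.19 on the log2 scale (adjusted p 0.0224, and up to 0.0598 with 1 library left out, without young mutant library 4).

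The SMAD that carries TGF-beta and activin signals, smad2 (ENSDARG00000006389), differed by less than the threshold of size but with the smallest p of all members in this comparison, in which 13 of 53 members (24.5%) and 26.7% of all genes passed the adjusted p. It had 1552, 2065, 1456, 1821 and 1968 in young mutants, against 2869, 2924, 2922, 2635 and 2729 in young wildtype (-0.68 ± 0.08, adjusted p 8.30e-06). The highest young mutant library lay well below the lowest wildtype library. The BMP receptor gene acvr1l had 4254, 4603, 4286, 4330 and 4594 in young mutants, against 5479, 5605, 5395, 5268 and 5385 in young wildtype (-0.30 ± 0.05, adjusted p 0.000121). This small difference was larger than the spread within either group. In the other direction tgfbr1b had 90.2, 98.8, 100, 98.6 and 96.5 in young mutants, against 42.8, 59.6, 31.5, 54.4 and 66.3 in young wildtype (0.96 ± 0.20, adjusted p 0.00174), with no overlap. The target id3 had 508, 515, 581, 578 and 390 in young mutants, against 408, 320, 301, 398 and 471 in young wildtype, overlapping in young mutant library 5 (0.44 ± 0.12, adjusted p 0.0118).

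In old animals the same genotype comparison gave 2 calls of 53, 1 higher and 1 lower, 3.77%, against 2.81% of all genes (1.23% higher and 1.58% lower). The fstl1b gene had 1707, 1583, 1338, 1212 and 1165 in old mutants, against 2402, 5575, 4126, 4421 and 3735 in old wildtype (log2 fold change -1.50 ± 0.16, adjusted p 1.54e-05). All old mutants lay below all old wildtype animals. The ligand gdf2 was higher, at 0.820, 3.17, 41.3, 27.6 and 57.5 in old mutants, against 2.29, 0.983, 0, 0.854 and 0 in old wildtype (ratio 31.6, 95% counting interval 12.3 to 116, adjusted p 0.00876). Old mutant libraries 1 and 2, which also paired over all genes, were near the wildtype range and the other 3 were far above it. With only these groups in the fit the adjusted p of gdf2 was 0.0759.

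By the adjusted p alone, 12 of 53 members passed (22.6%), against 14.9% of all genes. Below the threshold of size, bmpr2b had 2878, 2783, 3843, 4172 and 2330 in old mutants, against the old wildtype values above, with no overlap (0.91 ± 0.13, adjusted p 0.000305). The acvr2aa gene had 2458, 2549, 2391, 2393 and 2428 in old mutants (-0.55 ± 0.10 against old wildtype, adjusted p 0.00154), a narrow range that overlapped old wildtype library 1 alone. The TGF-beta SMAD gene smad3 copy 2 (ENSDARG00000036096) had 546, 517, 455, 491 and 559 in old mutants, against 782, 668, 735, 683 and 759 in old wildtype (-0.50 ± 0.13, adjusted p 0.0160), with no overlap. For nog3 the values were 99.3, 98.1, 158, 136 and 107 in old mutants, against 149, 213, 226, 203 and 177 in old wildtype (-0.70 ± 0.17, adjusted p 0.00966). The target id1 had 647, 539, 390, 430 and 291 in old mutants, against 521, 664, 670, 644 and 490 in old wildtype, and the difference was not called (-0.42 ± 0.17, adjusted p 0.108).

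**Figure D4:**
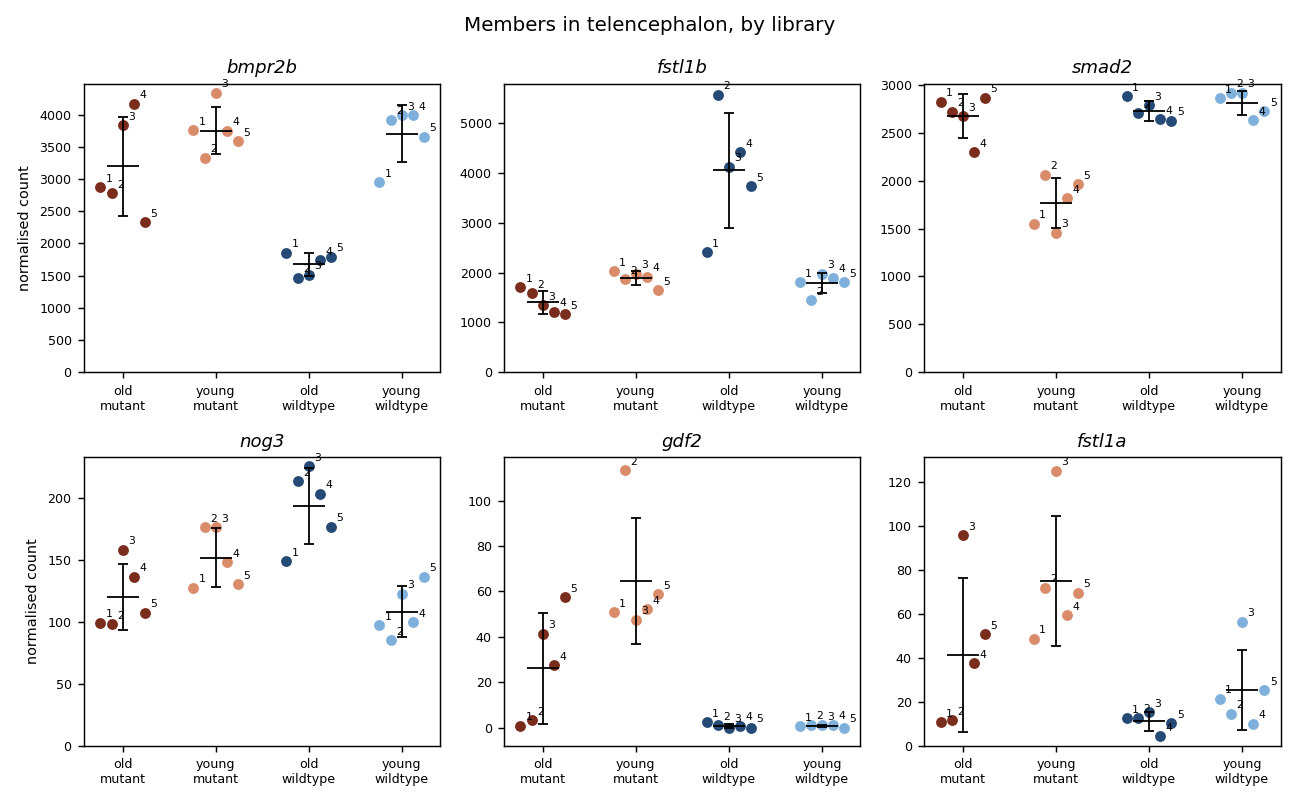
Normalised counts of bmpr2b, fstl1b, smad2, nog3, gdf2 and fstl1a in each telencephalon library (points numbered by library) for old mutant, young mutant, old wildtype and young wildtype, with the mean and SD as bars. Old wildtype stands apart from the other groups in bmpr2b (1470 to 1856) and fstl1b (2402 to 5575), and young mutants stand apart in smad2 (1456 to 2065).

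Between old and young mutants no member was called, with limma, edgeR or DESeq2, against 1.32% of all genes with limma, and 13 members (24.5%) had an unadjusted limma p under 0.05, against 23.7% of all genes. Of the members, 3 (5.66%) passed the adjusted p with changes under the threshold of size, against 6.18% of all genes that passed the adjusted p. The lowest p among these was that of smad2, with 2831, 2723, 2679, 2299 and 2870 in old mutants, against 1552, 2065, 1456, 1821 and 1968 in young mutants (0.61 ± 0.08, adjusted p 0.000755). Old mutants thus had smad2 levels within or close to the range of both wildtype groups. The others were id3, with 387, 353, 361, 373 and 404 in old mutants, against the young mutant values above (-0.44 ± 0.12, adjusted p 0.0388), and thbs1b, at 137 ± 32.0 in old mutants and 224 ± 37.1 in young mutants (-0.73 ± 0.18, adjusted p 0.0239). The gdf2 gene differed by -2.15 with an adjusted p of 0.0804. The antagonist fstb had 145, 168, 223, 166 and 118 in old mutants, against 263, 254, 244.4, 226 and 183 in young mutants (-0.53 ± 0.18, adjusted p 0.0798), overlapping in young mutant library 5. The gdf2 gene passed when old mutant library 3 or 5 was left out, with an adjusted p of 0.0391 at the lowest.

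Whether age acted differently in the genotypes was tested as the age effect in mutants minus that in wildtype. Of 53 members 0 were higher and 2 lower, 3.77%, against 6.04% of all genes (2.58% higher and 3.46% lower). The difference was -1.58 ± 0.23 for fstl1b (adjusted p 0.000170): its log2 change with age was -0.44 in mutants and 1.14 in wildtype. For nog3 it was -1.19 ± 0.24 (adjusted p 0.00257), from -0.35 in mutants and 0.84 in wildtype. A further 6 members passed the adjusted p with smaller differences, which makes 8 of 53 passing it (15.1%), against 14.5% of all genes. They were bmpr2b (0.88 ± 0.19, adjusted p 0.00385), from -0.26 in mutants and -1.14 in wildtype, smad2 (0.65 ± 0.12, adjusted p 0.00131), from 0.61 in mutants and -0.04 in wildtype, and acvr2aa (-0.52), acvr1l (0.25), acvr1ba (0.41) and skia (0.61). The ligand bmp5 (-0.69, adjusted p 0.0548) and the target id1 (-0.69, adjusted p 0.0629) had the lowest p-values of their groups and did not pass. For bmpr2b and fstl1b every old wildtype library lay outside the range of the other groups, whereas for smad2 it was the young mutants that lay outside. These comparisons share libraries, so the values are set side by side and not counted as separate support.

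Of the members with no call in the telencephalon, the TGF-beta ligand genes had log2 fold changes between -0.64 and 0.35 in all comparisons of groups, and smad1 between -0.06 and 0.08. The bmpr1ba gene (ENSDARG00000104100) had 599, 541, 633, 641 and 660 in old mutants, against 408, 470, 445, 483 and 499 in young mutants (0.41 ± 0.14, adjusted p 0.0874), a difference with no overlap that missed the threshold. Among 69 other pathway genes tested, 4 fell and none rose in young mutants against young wildtype (bmp15 -1.37, gdf3 -1.15, engl -3.45 and bgna -1.54), 5.80% against 8.79% of all genes. Against young wildtype, old wildtype had 1 higher (grem1a 1.32) and 7 lower (gdf10b -1.24, engl -2.70, thbs3a -1.05, thbs4a -1.56, tgfbi -1.69, snai1a -1.19 and msx1b -1.55), 11.6% against 10.9% of all genes. Against old wildtype, old mutants had 1 higher (gdf10b 1.41) and 2 lower (gdf3 -1.10 and thbs2a -1.22), 4.35% against 2.81% of all genes. Ependymoglial markers summed to 154608 to 208493 in old mutants, 169151 to 207575 in young mutants, 181679 to 211931 in old wildtype and 128942 to 168236 in young wildtype, and their part in these differences was not tested.

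Some libraries also held RNA of pineal genes. A list of pineal genes had a median of 731 to 1350 normalised counts in 7 of the 20 telencephalon libraries. They were old mutant library 4, young mutant libraries 2 and 4, old wildtype library 1, and young wildtype libraries 1, 4 and 5. Old wildtype library 1, which stood apart from its group over all genes, was thus the only old wildtype library with high pineal genes. The other 13 libraries lay at 2.64 to 22.6. Among the members, the BMP ligand genes bmp7a and bmp4 and the inhibitory smad6 copy 1 did not overlap between these libraries. How many of all genes did so was not counted, so these genes are not read as an excess. The bmp7a gene had 76.4 to 194 normalised counts in the libraries with high pineal genes and 2.11 to 14.9 in the others. The bmp4 gene had 138 to 197 in the libraries with high pineal genes and 46.8 to 130 in the others. The smad6 copy 1 gene had 238 to 325 with high pineal genes and 137 to 237 otherwise, so its ranges nearly met (238.0 against 236.9). None of the 3 was called in any telencephalon comparison. Without the pineal-high libraries, bmpr2b (-1.28, adjusted p 0.000217) and fstl1b (1.39, adjusted p 0.000381) were still called in old against young wildtype, as were gdf2 (4.63, adjusted p 0.0278) and chrd (1.34, adjusted p 0.0203) in young mutants. The calls of fstl1a (1.35, adjusted p 0.364) and nog1 (-0.73, adjusted p 0.396) in young mutants, and of bmp6 (-0.71, adjusted p 0.309) and nog1 (-1.15, adjusted p 0.112) with age, were lost without them. That fit also lacked 3 of the 5 young wildtype libraries, and the part of the smaller groups in these losses was not tested.

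**Figure D5:**
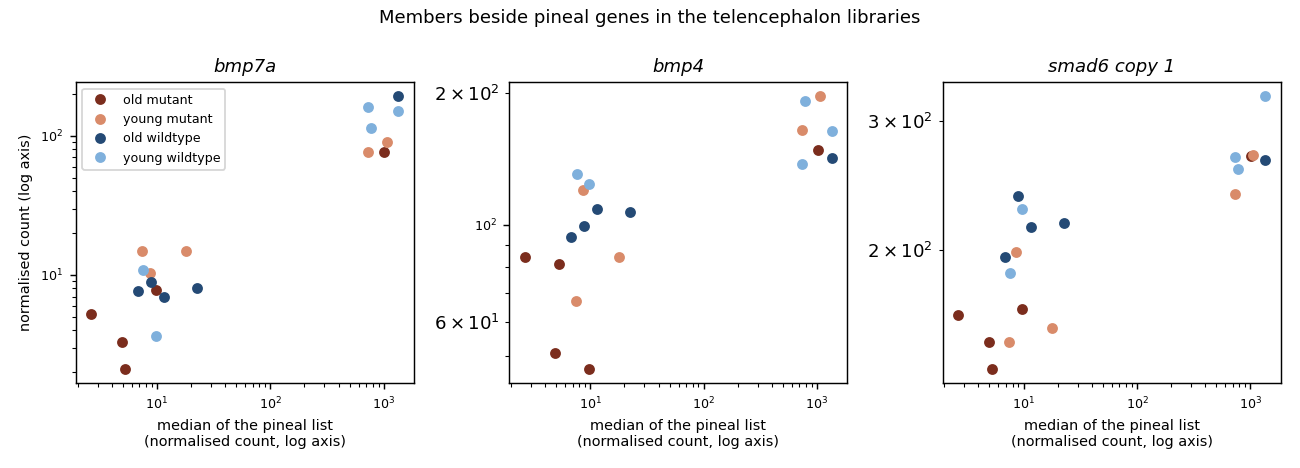
Normalised counts of bmp7a, bmp4 and smad6 copy 1 (vertical, log axis) against the median of the pineal gene list (horizontal, log axis) in the 20 telencephalon libraries. The 7 libraries with a pineal median of 731 to 1350 lie above the other 13 in all 3 genes, most widely in bmp7a (76.4 to 194 against 2.11 to 14.9). In smad6 copy 1 the ranges nearly meet (238.0 against 236.9).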

How the data were processed

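Libraries were prepared with the SMART-Seq v4 kit, which does not mark strand, so reads of a gene and of an antisense partner cannot be told apart. Per the labels and the paper's methods, STAR was the aligner and GRCz10 the genome build. The deposited signal is a count per gene that the authors scaled with a size factor of each library in DESeq2 (release 3.9), held in tables for telencephalon, Olig2+ and Mpeg1+ samples apart from each other. Values were therefore compared within a table only. Dividing by the value of 1 read recovered whole reads for 100% of values (within 1e-06). The 35 libraries were grouped by their labels. Per the paper, each telencephalon library is its own biological replicate and each sorted library a pool of 3 telencephali. The labels do not tie libraries to animals.

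Genes averaging 5 or more over the libraries of a table were tested with limma 3.58.1 (R 4.3.3; trend and robust) on log2(value + 1), with Benjamini-Hochberg adjustment over all genes of a table, and fold changes of low genes are understated on this scale. The 4 telencephalon groups shared 1 fit, and the difference of age effects was a contrast in it. Single values were compared with a two-sided exact permutation test (scipy 1.17.1). Ratios of genes with few reads carry exact 95% counting intervals, and floors were set at 3 reads per library. Tests were checked on simulated data. The members and lists were chosen with earlier results of these data known. Values per library are given for called members with a mean of at least 50 in a group (the 12 with the lowest p) and for the member of each step with the lowest p where none was called, and for further members chosen after their values were seen. Other pathway genes are given as counts, with up to 3 named per list and direction. Of the 56 symbols, 21 were matched by the study's own symbols, 16 by a table of gene names, 10 because the other copy was named and 6 as pairs of copies. Alternatives were pseudocounts of 0.25 and 4, no filter or a mean of 50, equal library totals, the count models of DESeq2 1.42.0 and edgeR 4.0.16 on whole reads, no fold threshold, a replicate block, only the groups compared, alike libraries averaged, libraries with high pineal genes left out, and each library left out in turn. Between labelled mutant Mpeg1+ libraries 1 and 2, chi-square per degree of freedom was 1.81, and between 3 and 4 it was 10.3. It was 29.9 to 46.9 for the other pairs labelled mutant and 65.1 to 551 for those labelled wildtype. The main fit and the permutation test kept all 4 as separate samples. Whether the libraries of a pair came from the same pool was not tested, so n = 4 may overstate the number of independent samples.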

Additional observations from a re-analysis of the deposited data

Results flagged for a closer look

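In 5 of 74 groups of libraries examined, 1 library lay far from the others of its group, and chance alone gives about 1 in 20. They were fstb in labelled mutant Mpeg1+ library 2 (0.907 normalised counts, which is 1 read, with the others at 0, where any read would stand out), bmp7b in wildtype Olig2+ library 2 (61.6, with the others at 36.2 to 40.1), smad4a in wildtype Olig2+ library 3 (144, with the others at 295 to 306), gdf2 in young mutant telencephalon library 2 (113, with the others at 47.5 to 58.7) and id1 in young wildtype telencephalon library 1 (495, with the others at 448 to 458).

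For 8 members the change with age differed between mutants and wildtype by the test of the difference itself (limma adjusted p at most 0.05), 15.1% of the 53 tested against 14.5% of all genes. The age effect in mutants minus that in wildtype was -1.58 for fstl1b, -1.19 for nog3, -0.52 for acvr2aa, 0.25 for acvr1l, 0.41 for acvr1ba, 0.61 for skia, 0.65 for smad2 and 0.88 for bmpr2b, on the log2 scale.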

How the results depend on the processing

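Of 52 named results, 19 kept their direction and their side of the threshold in every alternative that tested them, and none changed direction. With replicate numbers as a block 0 members were called in Mpeg1+ cells (15 at an unadjusted limma p under 0.05), and 0 with alike libraries averaged (10 at an unadjusted p under 0.05), against 10 with edgeR and 13 with DESeq2. The counts at an unadjusted p have no share of all genes beside them, so they are not read as an excess. The correlations of same-numbered libraries ran from -0.34 to 0.48, so the numbers were not taken as pairs, and the block changed no other count by over 1.5 times. Leaving out 1 library at a time, called members ranged from 5 to 18 in Mpeg1+ cells, 6 to 21 in Olig2+ cells (21 without mutant library 2), 2 to 5 in young mutants, 3 to 4 with age in wildtype, 0 to 1 with age in mutants (gdf2, without old mutant library 3 or 5), and 2 to 3 both in old mutants against old wildtype and for the difference of age effects. These ranges have no share of all genes beside them and may follow changes in calls over all genes. In the telencephalon a filter at a mean of 50 left gdf2, nog1, fstl1a and bmp6 untested. With it 1 call remained in young mutants, 2 with age in wildtype and 1 in old mutants against old wildtype. Without the fold threshold these were 13, 17 and 12, with 3 for age in mutants and 8 for the difference of age effects. With only the groups compared, old mutants against old wildtype had 1. Equal totals moved the median of all genes to -0.17 in Mpeg1+ and -0.27 in Olig2+ cells. The split of all higher and lower calls was then 779 to 1129 (against 1042 to 756) and 878 to 3763 (against 1557 to 2820), and it was 746 to 728 with edgeR in Mpeg1+ cells and 1525 to 1990 with DESeq2. All genes called in Mpeg1+ cells numbered 3515 with DESeq2 and 249 with the block, against 1798. In Olig2+ cells DESeq2 gave 2783 higher and 3225 lower and moved the median of all genes to 0.19, and the members' median stayed between -1.22 and -0.94 under these scalings and tools. Few reads of the gene in a group limit the results for gdf2, nog1 and bmp7b, and those for fstb, thbs1b and bmp5 in Mpeg1+ cells.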
